A study of Mus musculus with 24 samples.

Results

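The Rab GTPases are the largest branch of the small GTPases, and each marks a particular set of membrane compartments. The genes described here were all rows of the deposited count table whose symbol was Rab, a number and at most a single further letter, which gave 44 genes of the 11590 in the table. The cells were bone marrow-derived macrophages, primary cells grown from the marrow of male C57BL/6 mice in medium with M-CSF, the growth factor that drives marrow progenitors to macrophages. On day 7 the cells were left untreated (Cont), or were given lysophosphatidic acid (LPA, a signalling lipid, 10 µM) or lipopolysaccharide (LPS, the endotoxin of Gram-negative bacteria, 10 ng/mL) for 4 h. The mice were wild-type (WT) or lacked the G protein-coupled receptor GPR35 (KO), and each of the 6 groups of genotype and treatment had 4 libraries, 24 in all. The labels number the replicates but give no animal, age or deletion design, so a p-value measures the spread between these samples, which may be partly technical.

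A Rab protein acts as a switch. In its GTP-bound form it sits on a membrane and recruits effectors, which tether, move or fuse vesicles. Exchange factors (GEFs) turn it on, GTPase-activating proteins (GAPs) turn it off, and GDP dissociation inhibitors carry the inactive form through the cytosol after lipid anchors have been attached. In macrophages Rab proteins direct the maturation of phagosomes, the delivery of receptors and cytokines to the surface and their return from endosomes.

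The WT libraries held 31985119 to 46697165 counts and the KO libraries 15167683 to 21461866. WT libraries were read on 2 flow-cell lanes and KO libraries on 1, so lane and depth cannot be told apart from genotype. Gpr35 itself was at 2.60 ± 0.214 CPM in untreated WT cells and 0.133 ± 0.0710 CPM in untreated KO cells (mean ± SD, n = 4), and at 0 counts in all 4 KO libraries with LPS. CPM, the usual count scaled to library size, is given here after TMM scaling, the edgeR factor that makes most genes level between libraries. All 8 macrophage markers on the list used were in the table, with a summed level of 30850 to 45050 CPM per library. Of the other lists the table held 8 of 9 neutrophil markers (all but Ly6g), 5 of 6 stromal, 4 of 6 osteoclast, 2 of 5 platelet and 1 each of the dendritic, mast cell and lymphocyte markers. In bulk libraries such as these, fewer cells of a type and less RNA per cell cannot be told apart.

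Rab7, Rab5c, Rab8b, Rab1a and Rab31 were the 5 Rab transcripts with the highest level per transcript length in untreated WT macrophages. Rab7 directs traffic to the lysosome and stood at 154 ± 7.52 RPKM (CPM per kilobase of the deposited length, mean ± SD, n = 4). Rab5c, of the early endosome, stood at 152 ± 4.44 RPKM, and the ranges of these 2 genes overlapped. Rab8b, Rab1a and Rab31 followed at 96.9 ± 1.48, 89.8 ± 1.96 and 86.0 ± 1.28 RPKM. These 5 genes made up 37.9% of the summed Rab level per length. At the other end Rab27a, Rab23 and Rab44 stood at 1.03 ± 0.163, 0.917 ± 0.0779 and 0.703 ± 0.101 RPKM. Of the 43 neighbouring pairs in this order, 21 did not overlap between their 4 libraries and 22 did. The summed Rab transcripts took 0.469% of all counts in untreated WT cells, 0.468% with LPA and 0.451% with LPS. In KO cells the shares were 0.476%, 0.474% and 0.446%.

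**Figure D1:**
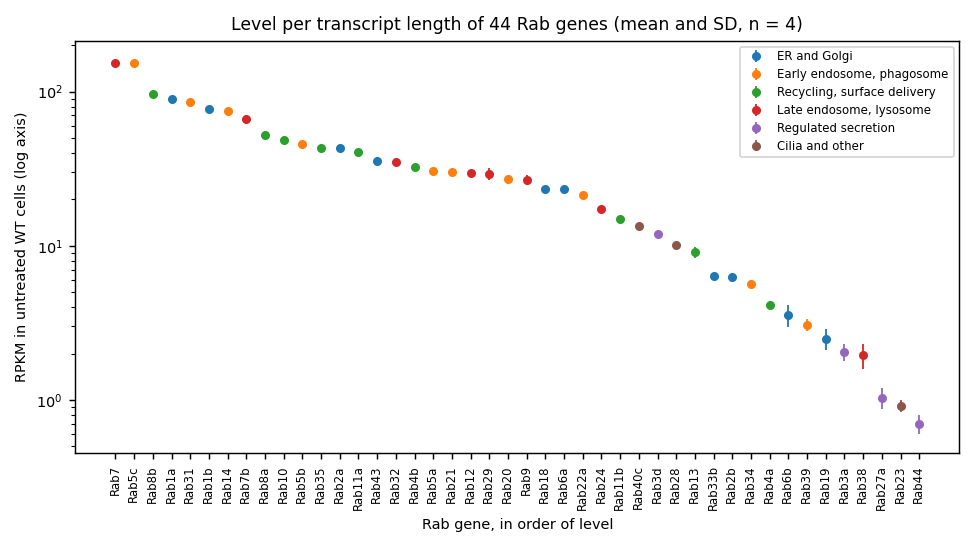
Level per transcript length (RPKM, log axis) of the 44 Rab genes in untreated WT macrophages, ordered from high to low and coloured by role, with points for the mean and bars for the SD of 4 libraries. Endosomal, recycling and ER to Golgi Rabs share the top of the order, from Rab7 at 154. Of the regulated secretion Rabs, Rab3d stands at rank 30, and Rab3a, Rab27a and Rab44 lie near the end, where Rab44 stands at 0.703.

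LPS changed most Rab genes in both genotypes, and in both directions. In WT cells 24 rose and 15 fell, 39 of 44 (88.6%), beside 84.2% of all genes called, 40.6% higher and 43.6% lower. In KO cells 22 rose and 14 fell, 36 of 44 (81.8%), beside 82.3% of all genes, 39.3% higher and 43.0% lower. The share of Rabs called was therefore near that of all genes. The median log2 change was 0.29 over the 44 genes and -0.04 over all genes in WT, and 0.06 and -0.05 in KO. A call is an adjusted p below 0.05 in edgeR's quasi-likelihood test with Benjamini-Hochberg adjustment over all 11590 genes, and a log2 change is given with its SE.

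The direction of the smaller rises depended on scaling. With library totals in place of TMM factors the median log2 change of all genes with LPS became -0.59 in WT and -0.55 in KO, and the Rab calls became 14 higher and 24 lower in WT and 14 higher and 26 lower in KO. Of the 24 rises in WT, 14 were also called as rises with totals, those of Rab1a, Rab5a, Rab5c, Rab6a, Rab8a, Rab10, Rab11a, Rab12, Rab18, Rab20, Rab21, Rab22a, Rab32 and Rab33b. The same 14 of the 22 rises in KO were called with totals. All 15 falls in WT and all 14 in KO were called with either scaling. The changes below are relative to the TMM scale. Counts with library totals are given below without the share of all genes called with totals. The fall of the median with LPS applies to all genes, so no lean of a list toward lower calls is read from those counts.

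**Figure D2:**
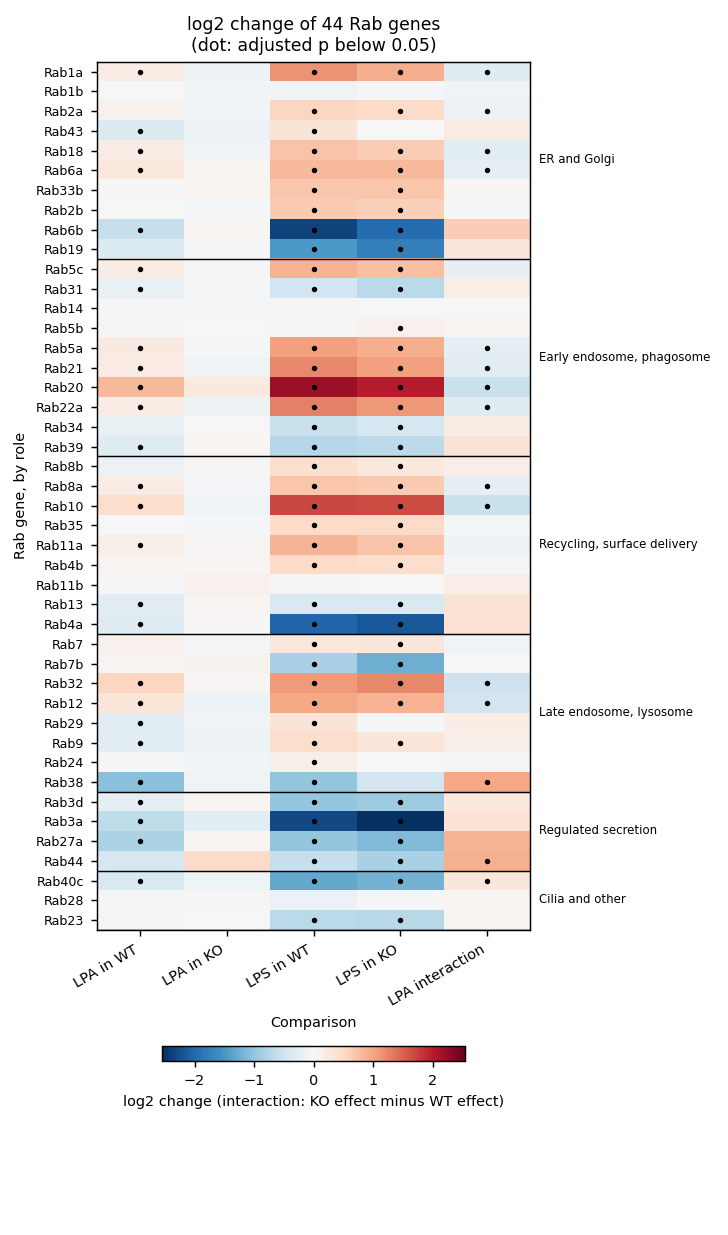
log2 change of each of the 44 Rab genes (rows, grouped by role) in 5 comparisons (columns: LPA and LPS in each genotype and the difference of the LPA effect, KO minus WT), with colour for size and direction and a dot where the edgeR adjusted p was below 0.05. The LPA in KO column holds no dot, both LPS columns are alike in colour, and all 4 regulated secretion Rabs are blue in both LPS columns.

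Among the Rabs of the early endosome and phagosome, LPS raised 5 of 10 and lowered 3 in WT, and raised 6 and lowered 3 in KO. With library totals 5 were higher and 5 lower in each. LPA raised 5 and lowered 2 in WT. Over all genes 23.5% were higher and 21.1% lower with LPA in WT, the background for all role counts with LPA. Rab20, a Rab of the maturing phagosome that is known to be induced by hypoxia and interferon-gamma, had the largest rise of the 44 genes with either agent in WT. Its WT libraries held 17.9, 19.6, 19.2 and 21.2 CPM untreated, 42.7, 38.3, 22.9 and 34.1 CPM with LPA and 87.2, 82.7, 99.9 and 86.6 CPM with LPS. In KO cells it held 18.3, 17.3, 22.3 and 19.6 CPM untreated, 25.3, 17.8, 25.4 and 23.8 CPM with LPA and 75.0, 80.8, 76.9 and 76.6 CPM with LPS. All LPS libraries lay above all others, and the WT libraries with LPA above the untreated ones, with replicate 3 the lowest of the LPA libraries. In KO cells the LPA and untreated libraries overlapped. The log2 change with LPS was 2.19 ± 0.13 in WT (edgeR adjusted p = 9.4e-13) and 2.00 ± 0.14 in KO (adjusted p = 1.2e-11). With LPA it was 0.83 ± 0.13 in WT (adjusted p = 5.7e-05) and 0.25 ± 0.14 in KO (adjusted p = 0.5). Per transcript length Rab20 moved from rank 22 of 44 (27.0 RPKM) to rank 6 (123 RPKM) with LPS in WT. The 2 LPS comparisons share no library, while the LPA and LPS comparisons of a genotype share their untreated libraries.

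The gene bodies of Rab20 (chr8:11453390-11478640), Rab5a (chr17:53479234-53507678) and Rab5b (chr10:128677170-128696284) are placed here on GRCm38.p6 from the RefSeq gene table. Their promoter windows are shown because Rab20 had the largest rise and because Rab5a and Rab5b encode closely related early endosome GTPases whose transcripts parted with LPS. Each window holds the 250 bases before an annotated transcript start, from RefSeq on GRCm38.p6, written 5′ to 3′ on the strand of the gene. Capitals mark matches on either strand to a set of motifs. These were GGGCGG (GC box), CACGTG (E-box), its core ACGTG (the hypoxia response core, which overlaps the E-box), TGANTCA (AP-1), TGACGTCA (cAMP response) and the named consensus motifs of the interferon response element and NF-kB. The Rab20 window lies at chr8:11478641-11478890 (minus strand), that of Rab5a at chr17:53478984-53479233 (plus strand) and that of Rab5b at chr10:128696269-128696518 (minus strand).
Rab20: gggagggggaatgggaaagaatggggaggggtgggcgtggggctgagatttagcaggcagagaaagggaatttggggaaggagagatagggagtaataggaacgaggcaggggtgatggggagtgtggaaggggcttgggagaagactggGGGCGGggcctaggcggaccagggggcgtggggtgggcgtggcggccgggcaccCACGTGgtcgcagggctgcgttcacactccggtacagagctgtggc
Rab5a: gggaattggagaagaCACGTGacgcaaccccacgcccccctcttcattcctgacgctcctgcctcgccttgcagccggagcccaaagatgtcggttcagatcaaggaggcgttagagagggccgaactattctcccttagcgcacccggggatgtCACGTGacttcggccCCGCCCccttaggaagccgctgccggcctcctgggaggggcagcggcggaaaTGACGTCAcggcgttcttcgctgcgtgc
Rab5b: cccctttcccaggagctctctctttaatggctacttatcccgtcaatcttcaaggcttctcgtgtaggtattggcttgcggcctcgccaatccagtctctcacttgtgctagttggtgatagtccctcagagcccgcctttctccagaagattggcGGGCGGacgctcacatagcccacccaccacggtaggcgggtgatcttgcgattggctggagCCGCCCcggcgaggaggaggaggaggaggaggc
The Rab20 window held an E-box and a GC box. The Rab5a window held 2 E-boxes, a cAMP response element and a GC box. The Rab5b window held 2 GC boxes and no other match. Over the 47 promoter windows of 38 Rab genes with a window used here, 70.2% held a GC box, beside 32.7% of 32851 windows in the RefSeq table. The median G and C content was 62.8% in the Rab windows and 52.4% in all. The hypoxia core was in 19.1% and 16.6%, the E-box in 10.6% and 6.02%, the NF-kB consensus in 4.26% and 7.25%, AP-1 in 2.13% and 6.75%, the interferon element in 2.13% and 2.98% and the cAMP element in 2.13% and 1.55%. A match describes the letters of the window and not a bound site.

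The early endosome trio of Rab5 genes responded unequally. Rab5a stood at 74.0, 72.0, 69.1 and 72.4 CPM in untreated WT libraries, 86.5, 85.7, 80.9 and 84.0 CPM with LPA and 138, 161, 159 and 137 CPM with LPS. In KO libraries it stood at 67.0, 77.4, 67.9 and 70.6 CPM untreated, 68.2, 74.3, 68.1 and 67.9 CPM with LPA and 139, 141, 132 and 125 CPM with LPS. The 3 WT groups did not overlap, and in KO cells LPS alone stood apart. Rab5b stood at 138, 144, 150.5 and 146 CPM untreated and 152, 147, 145 and 147 CPM with LPS in WT, and these ranges overlapped. In KO cells Rab5b went from 149, 148, 146 and 144 CPM to 159, 156, 161 and 159 CPM with LPS, a small rise without overlap. Rab5a rose by a log2 change of 1.05 ± 0.06 in WT and 0.93 ± 0.06 in KO with LPS (edgeR adjusted p = 4.7e-14 and 8.3e-13), and by 0.23 ± 0.06 with LPA in WT (adjusted p = 0.0026). Rab5c, the most abundant of the trio, rose by 0.89 ± 0.06 and 0.76 ± 0.06 with LPS. Rab5b changed by 0.03 ± 0.04 in WT (adjusted p = 0.49), or -0.53 with library totals (adjusted p = 1.2e-09). In KO it was higher by 0.11 ± 0.04 (adjusted p = 0.0092), or -0.38 with library totals.

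Rab22a and Rab21, of early and sorting endosomes, rose with LPS, while Rab31, the close relative of Rab22a, fell. Rab22a held 40.6, 41.4, 40.4 and 41.2 CPM untreated, 48.3, 48.6, 42.3 and 46.4 CPM with LPA and 93.5, 101, 109 and 94.6 CPM with LPS in WT. The KO values were 35.8, 43.5, 40.0 and 41.3, then 34.4, 38.3, 38.1 and 37.2 with LPA and 88.0, 93.6, 87.1 and 75.2 CPM with LPS. LPS libraries lay above the rest in both genotypes, and the LPA libraries of WT just above the untreated ones. Rab21 held 55.8, 54.0, 54.0 and 55.1 CPM untreated, 68.3, 66.1, 57.4 and 59.5 CPM with LPA and 116, 130.2, 133 and 129.7 CPM with LPS in WT, also without overlap. In KO it held 52.0, 55.5, 54.4 and 51.6 CPM untreated, 53.1, 50.05, 50.1 and 46.9 CPM with LPA and 113, 119, 109 and 102 CPM with LPS, where only LPS stood above. Rab31 went from 294, 299, 298 and 305 CPM to 249, 253, 280.3 and 269 CPM with LPA and 218, 216, 234 and 188 CPM with LPS in WT, and each group lay below the one before. Its rank per length went from 5 to 15. With LPS the log2 change of Rab22a was 1.28 ± 0.07 in WT and 1.10 ± 0.07 in KO, that of Rab21 1.22 ± 0.06 and 1.05 ± 0.06, and that of Rab31 -0.48 ± 0.06 and -0.68 ± 0.06. The largest edgeR adjusted p of these 6 was 1.5e-07. Rab34 and Rab39, both linked to phagosomes, fell with LPS, with log2 changes of -0.57 ± 0.10 and -0.73 ± 0.11 in WT, and Rab14 was at 0.02 ± 0.04 in WT (adjusted p = 0.64), or -0.54 with library totals (adjusted p = 1.6e-10).

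Rabs of recycling and delivery to the surface split with LPS, 6 of 9 higher and 2 lower in each genotype on the TMM scale, but 3 higher and 4 lower in each with library totals. LPA raised 3 and lowered 2 in WT. Rab10, which carries the LPS receptor TLR4 to the macrophage surface, held 178, 173, 167 and 166 CPM untreated, 233, 256, 208 and 239 CPM with LPA and 568, 584, 535 and 538 CPM with LPS in WT. In KO it held 162, 190, 174 and 167 CPM untreated, 158, 166, 157 and 162 CPM with LPA and 547, 586, 551 and 505 CPM with LPS. The WT groups did not overlap, with LPA between the other groups, and in KO cells LPA and untreated libraries overlapped. The log2 change with LPS was 1.70 ± 0.06 in WT and 1.66 ± 0.06 in KO (edgeR adjusted p = 5.9e-17 and 1.5e-16). With LPA it was 0.45 ± 0.06 in WT (adjusted p = 6.8e-06) and -0.11 ± 0.06 in KO (adjusted p = 0.49). Rab10 thereby moved from rank 10 to rank 4 per length with LPS. An antisense gene of Rab10 is in the table too, as are opposite-strand neighbours that overlap Rab2b, Rab3a, Rab6a and Rab24. Reads of the 2 strands can be told apart only if the counting used strand, which the sources used here do not state.

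Rab4a, of fast recycling from early endosomes, fell about as steeply as Rab20 rose. It held 5.80, 6.00, 5.49 and 6.16 CPM untreated, 5.10, 4.43, 4.79 and 4.35 CPM with LPA and 1.23, 1.67, 1.38 and 1.37 CPM with LPS in WT. In KO it held 5.61, 7.45, 6.44 and 5.62 CPM untreated, 6.04, 7.41, 6.18 and 5.95 CPM with LPA and 0.977, 1.27, 1.66 and 1.65 CPM with LPS. No LPS library reached any untreated one, and the LPA libraries lay below the untreated ones in WT only. The log2 change with LPS was -2.05 ± 0.13 in WT and -2.17 ± 0.15 in KO (edgeR adjusted p = 6.6e-13 and 3.2e-12). With LPA in WT it was -0.33 ± 0.11 (adjusted p = 0.022), a call that was lost without WT Cont replicate 4 or WT LPA replicate 2 or 4 and with libraries thinned to the smallest. Its relative Rab4b was higher with LPS, by 0.48 ± 0.06 and 0.45 ± 0.06 on the TMM scale, while with library totals its log2 changes were -0.08 and -0.05. Of the 51-base words of Rab4b transcripts, 80.2% are also in the overlapping gene Gm21983, so its counts depend on how the counting treated shared reads. Rab11a, of the recycling endosome, and Rab8a, of transport to the surface, rose with LPS by 0.86 ± 0.05 and 0.71 ± 0.05 in WT, and by 0.15 ± 0.05 and 0.18 ± 0.05 with LPA in WT (edgeR adjusted p = 0.019 and 0.0036). The LPA call was lost in 5 of 16 alternatives for Rab11a, library totals and thinning among them, and in 0 for Rab8a.

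**Figure D3:**
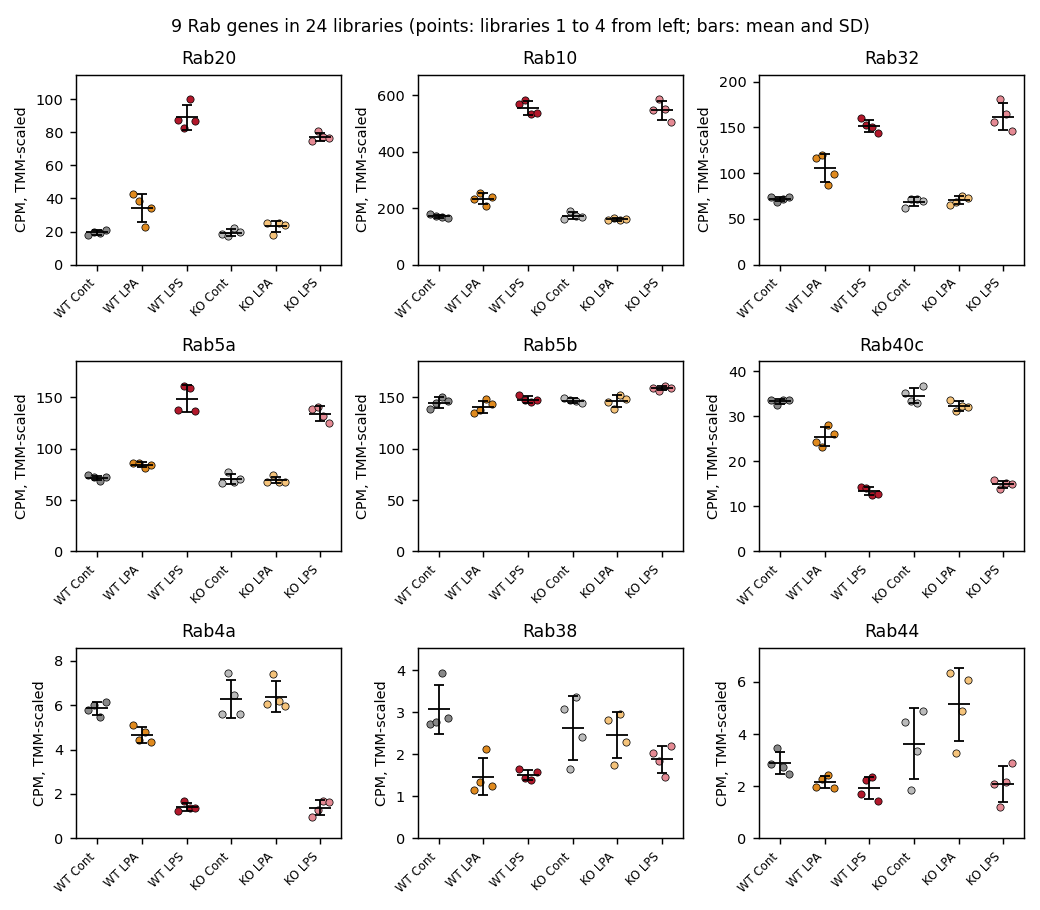
Level of 9 Rab genes in the 24 libraries (TMM-scaled CPM, linear axes from 0), with a point for each library, replicates 1 to 4 from left to right in each group, and bars for the mean and SD. Rab20, Rab10 and Rab32 climb from untreated to LPA to LPS in WT, while in KO their untreated and LPA points overlap, Rab5b lies between 135 and 161 CPM throughout, and Rab4a is lowest in both LPS groups, between 0.977 and 1.67 CPM.

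In the early secretory pathway, between the endoplasmic reticulum and the Golgi, LPS raised 7 of 10 Rabs and lowered 2 in WT, and raised 6 and lowered 2 in KO. With library totals 4 were higher and 3 lower in WT, and 4 and 4 in KO. LPA raised 3 and lowered 2 in WT. Rab1a, which moves cargo from the endoplasmic reticulum to the Golgi, held 245, 233, 236 and 240.1 CPM untreated, 300.1, 296, 239 and 249.8 CPM with LPA and 478, 549.9, 574 and 501 CPM with LPS in WT. The KO values were 228, 256, 233 and 241 untreated, 215, 229, 212 and 218 with LPA and 477, 471, 427 and 436 CPM with LPS. All LPS libraries lay far above the others, and the LPA libraries of WT overlapped the untreated ones through replicate 3. The log2 change of Rab1a with LPS was 1.14 ± 0.07 in WT and 0.92 ± 0.07 in KO (edgeR adjusted p = 3.9e-13 and 2.4e-11), while LPA gave 0.18 ± 0.07 in WT (adjusted p = 0.034, and 0.063 with library totals). That call was lost in 8 of 16 alternatives.

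Rab6a and Rab6b, the retrograde Golgi Rabs, moved in opposite directions. Rab6a held 82.1, 77.8, 74.5 and 76.3 CPM untreated, 101, 102, 86.0 and 86.2 CPM with LPA and 137, 151, 131 and 132 CPM with LPS in WT, without overlap. Rab6b held 13.2, 19.0, 16.1 and 18.8 CPM untreated, 6.31, 9.53, 14.2 and 14.8 CPM with LPA and 2.87, 3.48, 2.65 and 3.98 CPM with LPS in WT, where replicates 3 and 4 with LPA reached into the untreated range. In KO it held 15.5, 12.5, 16.4 and 16.5 CPM untreated, 15.6, 13.1, 15.5 and 18.6 CPM with LPA and 4.18, 2.97, 3.47 and 5.18 CPM with LPS, where LPA and untreated overlapped. Rab6a rose with LPS by 0.83 ± 0.06 in WT and 0.83 ± 0.06 in KO, and with LPA by 0.27 ± 0.06 in WT (edgeR adjusted p = 0.001). Rab6b fell with LPS, with a log2 change of -2.37 ± 0.22 in WT and -1.96 ± 0.24 in KO (adjusted p = 1.7e-09 and 1.4e-07), and -0.59 ± 0.20 with LPA in WT (adjusted p = 0.02). The LPA call on Rab6b was lost without WT Cont replicate 2 or 4, without WT LPA replicate 1 or 2 and in a fit of the compared groups alone.

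Rab19 and Rab43 complete the Golgi group of named genes. Rab19 held 2.68, 3.67, 3.74 and 3.03 CPM untreated and 0.771, 1.18, 1.27 and 1.55 CPM with LPS in WT, and 3.65, 2.22, 2.18 and 4.18 CPM and 1.12, 0.919, 0.763 and 0.863 CPM in KO, without overlap in either genotype. Its log2 change was -1.46 ± 0.23 in WT and -1.75 ± 0.28 in KO (edgeR adjusted p = 3.8e-06 and 4.9e-06). Rab43 held 164, 174, 186 and 165 CPM untreated, 114, 114, 165 and 149.7 CPM with LPA and 201, 218, 238 and 209 CPM with LPS in WT. LPS libraries were the highest, and LPA libraries split, with replicates 1 and 2 well below the untreated range and replicate 3 inside it. Rab43 fell with LPA, with a log2 change of -0.35 ± 0.10 (adjusted p = 0.0087) and was higher with LPS by 0.33 ± 0.10 in WT (adjusted p = 0.005, or -0.23 with library totals). Of its 51-base words 77.0% are shared with the overlapping gene Gm45140.

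Among the Rabs of late endosomes, lysosomes and related organelles, LPS raised 6 of 8 and lowered 2 in WT, and raised 4 and lowered 1 in KO. With library totals, which lowered the median of all genes, this became 2 higher and 5 lower in WT and 2 higher and 6 lower in KO. LPA raised 2 and lowered 3 in WT. Rab32 and Rab38 are a related pair that serves lysosome-related organelles, and Rab32 is also known for delivering antimicrobial cargo to vacuoles that hold bacteria. Rab32 held 73.5, 68.8, 72.1 and 73.6 CPM untreated, 116, 119.8, 86.6 and 99.5 CPM with LPA and 160, 153, 151 and 144 CPM with LPS in WT. In KO it held 62.0, 72.0, 71.9 and 69.5 CPM untreated, 65.2, 68.8, 74.6 and 72.7 CPM with LPA and 156, 181, 165 and 147 CPM with LPS. The 3 WT groups did not overlap, and in KO cells LPA and untreated did. Rab38 held 2.73, 2.76, 3.93 and 2.86 CPM untreated, 1.16, 1.33, 2.12 and 1.24 CPM with LPA and 1.65, 1.44, 1.38 and 1.58 CPM with LPS in WT. The KO values were 3.07, 1.64, 3.36 and 2.42 untreated, 2.82, 1.75, 2.97 and 2.28 with LPA and 2.02, 1.84, 1.46 and 2.20 CPM with LPS. Rab38 was lower with either agent than untreated in every WT library, and its KO groups overlapped throughout.

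The log2 change of Rab32 with LPS was 1.08 ± 0.08 in WT and 1.23 ± 0.08 in KO (edgeR adjusted p = 1.4e-11 and 2.4e-12), while LPA gave 0.55 ± 0.08 in WT (adjusted p = 1.7e-05) and 0.03 ± 0.08 in KO (adjusted p = 0.94). In WT Rab38 changed by -1.01 ± 0.21 after LPS and -1.07 ± 0.20 after LPA (adjusted p = 0.00012 and 0.00029). Rab38 was a low transcript with 50 to 76 counts per WT library with LPA, and with libraries thinned to the smallest its WT changes missed the threshold, at -0.48 for LPS (adjusted p = 0.2) and -0.87 for LPA (adjusted p = 0.051). In KO cells it changed by -0.49 ± 0.24 with LPS (adjusted p = 0.06), or -0.47 (adjusted p = 0.036) with the replicate number as a block.

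Rab7b, which sends TLR4 toward the lysosome, fell while the abundant Rab7 was higher. Rab7b held 314, 303, 271 and 303 CPM untreated and 121, 175, 196 and 184 CPM with LPS in WT, and 284, 357, 254 and 291 CPM and 124, 112, 113 and 150 CPM in KO, with a gap between the groups in both genotypes. The log2 change was -0.82 ± 0.13 in WT and -1.25 ± 0.13 in KO (edgeR adjusted p = 3.5e-06 and 8.3e-09), and its rank per length went from 8 to 24 in WT. The LPA libraries overlapped the untreated ones, with a log2 change of 0.07 ± 0.13 in WT (adjusted p = 0.69). Rab7 was higher with LPS by 0.27 ± 0.07 and 0.29 ± 0.07 on the TMM scale, while with library totals its log2 changes were -0.29 and -0.21. Rab12, which routes membrane receptors from recycling endosomes to lysosomes, held 59.0, 61.0, 57.0 and 60.6 CPM untreated, 77.6, 77.4, 65.6 and 73.7 CPM with LPA and 112, 122, 116 and 122 CPM with LPS in WT. The WT groups of Rab12 did not overlap. It rose by 0.99 ± 0.07 with LPS and by 0.31 ± 0.06 with LPA in WT (adjusted p = 1.5e-12 and 0.00066), and by 0.89 ± 0.07 with LPS in KO. Rab9, of transport from late endosomes to the Golgi, fell with LPA, with a log2 change of -0.28 ± 0.07 in WT (adjusted p = 0.0028) and was higher with LPS by 0.44 ± 0.07, or -0.12 with library totals.

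The Rabs of regulated secretion, which dock granules and lysosome-related organelles at the surface, were all lower with LPS. Rab3a, Rab3d, Rab27a and Rab44 fell in both genotypes, 4 of 4 with either scaling. Beside this short list, 43.6% of all genes were lower in WT and 43.0% in KO on the TMM scale. With LPA in WT 3 of the 4 fell, beside 21.1% of all genes lower. Rab44, at -0.42 ± 0.24 (edgeR adjusted p = 0.16), was called lower with the replicate number as a block (-0.42 ± 0.11, adjusted p = 0.0044), in the compared groups alone and after thinning. Their summed share of the Rab level per length went from 1.03 ± 0.0560% (SD, n = 4) in untreated WT cells to 0.786 ± 0.108% with LPA and 0.320 ± 0.0344% with LPS, and in KO from 1.07 ± 0.0985% to 1.12 ± 0.110% and 0.363 ± 0.0596%. Rab3a held 2.68, 3.25, 3.37 and 2.61 CPM untreated, 1.87, 1.53, 2.25 and 2.01 CPM with LPA and 0.350, 0.888, 0.561 and 0.599 CPM with LPS in WT. The KO libraries of Rab3a held 3.74, 2.64, 3.27 and 3.03 CPM untreated, 2.82, 2.32, 2.43 and 2.95 CPM with LPA and 0.698, 0.353, 0.277 and 0.863 CPM with LPS. The WT groups stepped down without overlap, and in KO cells LPS alone stood apart, at 4 to 11 counts per library. Rab3a fell, with a log2 change of -2.31 ± 0.22 in WT and -2.55 ± 0.27 in KO with LPS (edgeR adjusted p = 1.3e-09 and 6.5e-09), and -0.64 ± 0.18 with LPA in WT (adjusted p = 0.0081). Rab3d, the most abundant of the 4, fell, with a log2 change of -0.99 ± 0.07 and -0.92 ± 0.07 with LPS and -0.22 ± 0.07 with LPA in WT (adjusted p = 0.013).

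Rab27a, which tethers granules and lysosome-related organelles beneath the plasma membrane, held 3.43, 3.92, 4.03 and 2.81 CPM untreated, 1.59, 1.94, 2.70 and 1.89 CPM with LPA and 1.40, 1.70, 2.73 and 1.30 CPM with LPS in WT. The KO libraries held 4.90, 2.22, 3.74 and 5.37 CPM untreated, 5.70, 2.49, 3.75 and 5.04 CPM with LPA and 2.93, 0.636, 1.52 and 2.43 CPM with LPS. In WT every treated library lay below the untreated ones, and in KO replicate 2 was the lowest under all 3 conditions. Rab44, a large Rab linked to granule release, held 2.86, 3.46, 2.75 and 2.48 CPM untreated, 1.98, 2.29, 2.45 and 1.94 CPM with LPA and 1.68, 2.22, 2.35 and 1.44 CPM with LPS in WT. The KO libraries of Rab44 held 4.46, 1.85, 3.36 and 4.88 CPM untreated, 6.34, 3.28, 4.87 and 6.09 CPM with LPA and 2.09, 1.20, 2.15 and 2.90 CPM with LPS, with replicate 2 again the lowest of each group.

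The summed level of the 8 measured neutrophil markers was also the lowest in KO replicate 2 under each condition, at 264.6, 202.6 and 168.8 CPM against 364 to 535 CPM, 352 to 412 CPM and 389.8 to 476 CPM in the other KO libraries. In WT these markers summed to 262.5 to 475.5 CPM untreated, 219.5 to 266 CPM with LPA and 226 to 383 CPM with LPS. The low place of KO replicate 2 was not particular to neutrophil markers. Untreated and with LPA, though not with LPS, it was also the lowest KO library for the summed macrophage markers (33650 and 30850 CPM), the stromal markers and Cd4. For the osteoclast markers it was the highest KO library under each condition. Of 7 mast cell and basophil markers the table held only Hdc, which stood at 1.40 to 2.49 CPM untreated and 44.01 to 49.5 CPM with LPS in WT. In KO Hdc stood at 1.468 to 2.665 CPM untreated and 29.96 to 37.04 CPM with LPS. A single gene that moved with LPS in both genotypes is not read as a measure of these cells. The part of neutrophils, mast cells or basophils in the changes of Rab27a and Rab44 was not tested. Rab27a changed by -1.0 ± 0.32 in WT and -1.12 ± 0.35 in KO with LPS (edgeR adjusted p = 0.0062 and 0.006), and by -0.81 ± 0.30 with LPA in WT (adjusted p = 0.034, over 0.05 in 6 of 16 alternatives). Rab44 changed by -0.59 ± 0.25 and -0.82 ± 0.28 with LPS (adjusted p = 0.033 and 0.0093), the WT call being lost without WT Cont replicate 2 or WT LPS replicate 1 or 4.

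Of the 3 remaining genes, grouped as cilia and other, Rab40c and Rab23 fell with LPS. Rab28 was at -0.15 ± 0.08 in WT (edgeR adjusted p = 0.085) and was called lower with library totals, at -0.70. It was also called lower in the compared groups alone (-0.16, edgeR adjusted p = 0.039) and after thinning (-0.25, adjusted p = 0.026). Rab40c, a Rab that works within a ubiquitin ligase, held 33.6, 32.6, 33.7 and 33.6 CPM untreated, 24.4, 23.2, 28.1 and 26.1 CPM with LPA and 14.3, 14.1, 12.6 and 12.8 CPM with LPS in WT. The KO values were 35.1, 33.5, 33.1 and 36.7 untreated, 33.7, 31.1, 32.4 and 32.0 with LPA and 15.8, 13.9, 15.2 and 14.9 CPM with LPS. The 3 WT groups did not overlap, while in KO cells LPA replicate 1 lay within the untreated range and the other LPA libraries just below it. The log2 change was -1.31 ± 0.06 in WT and -1.21 ± 0.06 in KO with LPS (edgeR adjusted p = 1.4e-15 and 2.2e-14), and -0.39 ± 0.05 with LPA in WT (adjusted p = 1.3e-05).

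The balance between close relatives within the family shifted with LPS. The ratio of a pair within a library does not depend on scaling, so 12 pairs that share a number or a subfamily were compared per length, as a description without a test since the pairs were set up after values had been seen. With LPS the libraries did not overlap with the untreated ones in 11 of 12 pairs in WT and in 11 of 12 in KO, the exception being Rab2a and Rab2b in both. Since 84.2% and 82.3% of all genes were called with LPS, and pairs of other genes were not compared, nothing particular to the family is read from this count. The log2 ratio of Rab6a to Rab6b rose by 3.20 ± 0.19 (SE) in WT and 2.80 ± 0.23 in KO, and that of Rab32 to Rab38 by 2.08 ± 0.14 and 1.68 ± 0.31. The ratio of Rab22a to Rab31 rose by 1.77 ± 0.05 and 1.78 ± 0.08. That of Rab1a to Rab1b rose by 1.20 ± 0.10 and 0.95 ± 0.05, and that of Rab5a to Rab5b by 1.02 ± 0.09 and 0.81 ± 0.06. The ratio of Rab7 to Rab7b rose by 1.11 ± 0.16 and 1.54 ± 0.15, and that of Rab11a to Rab11b by 0.88 ± 0.07 and 0.73 ± 0.07. In the opposite sense the ratio of Rab4a to Rab4b changed by -2.54 ± 0.09 in WT and -2.65 ± 0.23 in KO, and that of Rab3a to Rab3d by -1.38 ± 0.24 and -1.75 ± 0.35. Rab5a, which stood below Rab5b in every untreated library (log2 ratio -0.70 to -0.48 in WT), stood above it in every LPS library (0.29 to 0.56 in WT and 0.08 to 0.27 in KO). With LPA 6 of 12 pairs did not overlap in WT and 1 of 12 in KO, the latter being Rab2a and Rab2b with a change of -0.04 ± 0.01. Of all genes 44.6% were called with LPA in WT and 2.62% in KO, so nothing particular to the family is read from these counts either.

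**Figure D4:**
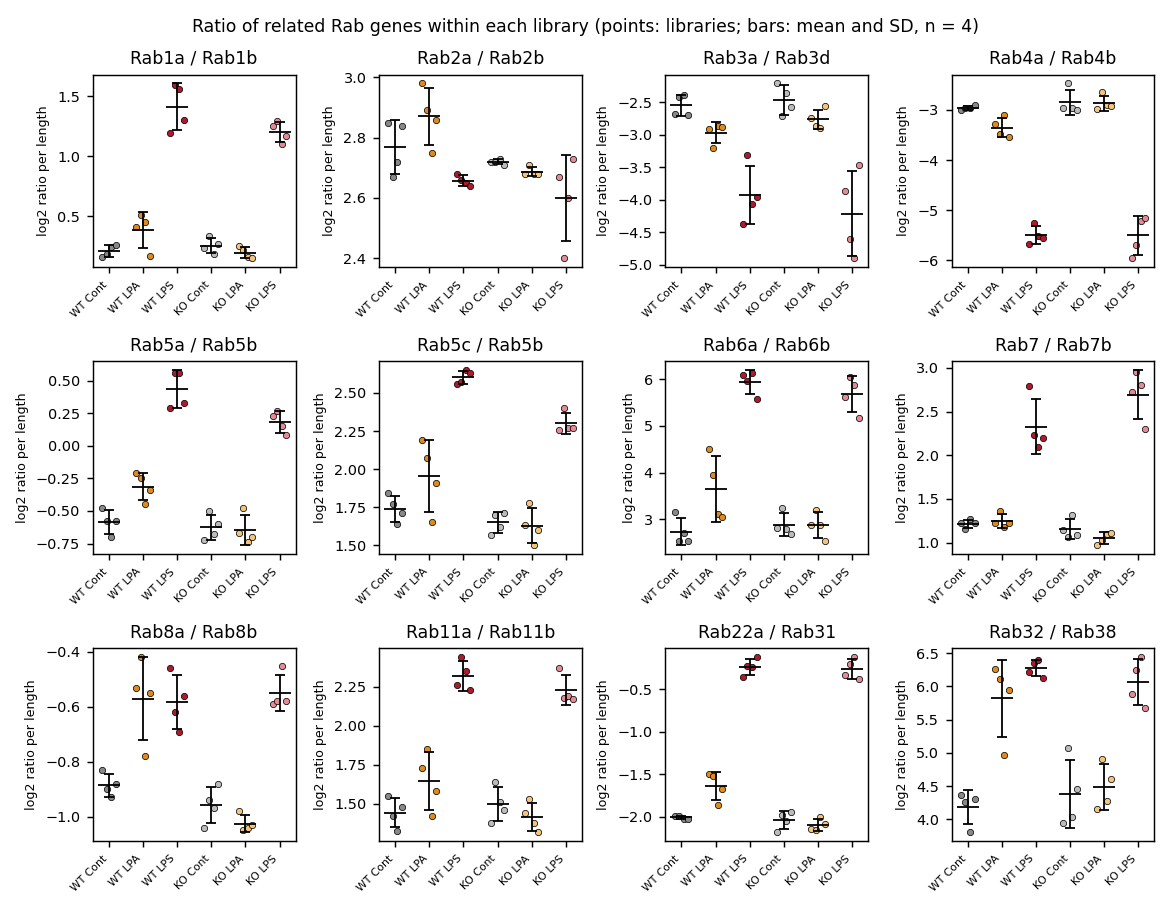
log2 ratio per length of 12 pairs of related Rab genes in each library (points) with the group mean and SD (bars, n = 4), each panel with its own axis. The LPS groups stand apart from the untreated ones of both genotypes in every panel but Rab2a to Rab2b, and the Rab5a to Rab5b ratio crosses 0.

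By role, the summed level per length shifted with LPS, though a few genes carried these sums. Late endosome and lysosome Rabs went from 23.5 ± 0.453% (SD, n = 4) of the Rab sum in untreated WT cells to 19.4 ± 0.386%, and from 22.9 ± 0.787% to 19.5 ± 0.305% in KO. Recycling Rabs went from 22.4 ± 0.158% to 24.9 ± 0.373% in WT and from 22.9 ± 0.403% to 25.9 ± 0.404% in KO. Early endosome and phagosome Rabs went from 31.1 ± 0.312% to 33.8 ± 0.396% in WT and from 30.9 ± 0.298% to 32.75 ± 0.360% in KO. In none of these 3 roles did the LPS libraries overlap with the untreated ones. Rab10 alone went from 3.18% to 6.87% in WT and from 3.25% to 7.28% in KO, more than its role. Rab20 went from 1.76% to 5.34% and from 1.77% to 5.01%, also more than its role. Rab7b went from 4.33% to 1.62% and Rab7 from 10.1% to 8.04% in WT. Other members went against their role in WT, as Rab8b (6.34% to 5.58%), Rab31 (5.62% to 2.67%) and Rab32 (2.29% to 3.21%). No shift of a whole role is read from these sums. The ER to Golgi Rabs stood at 20.4 ± 0.286% and 20.9 ± 0.327% in WT, where the ranges overlapped.

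LPA in WT cells changed 26 of the 44 Rab genes (59.1%), 13 higher and 13 lower, beside 44.6% of all genes, 23.5% higher and 21.1% lower. The median log2 change was -0.03 over the Rabs and -0.01 over all genes. With library totals 10 of the 13 rises and all 13 falls were called. Beside the genes described above, LPA raised Rab5c and Rab18 by 0.18 each and lowered Rab13, Rab29 and Rab39, with log2 changes from -0.31 to -0.26 (edgeR adjusted p from 0.018 to 0.035). The call was lost in 5 of 16 alternatives for Rab5c, Rab18 and Rab13, in 6 for Rab29 and in 3 for Rab39. For Rab5c, Rab13 and Rab29 the LPA and untreated libraries overlapped. Rab38 was the only 1 of the 26 with a change of 1 or more on the log2 scale. The WT libraries with LPA were uneven. Replicate 3 lay nearest to the untreated cells in 12 of the 13 rises and 10 of the 13 falls. The number of Rabs called was 29 without it, 16 without replicate 1 and 14 without replicate 2, and 16 with all libraries thinned to the smallest. Of the 26 genes, 12 were called under all 16 alternatives, among them Rab10, Rab12, Rab20, Rab32, Rab40c and Rab3a.

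In KO cells LPA changed 0 of the 44 Rab genes, beside 2.62% of all genes (304 genes), 1.56% higher and 1.06% lower. At an unadjusted p below 0.05 there was 1 Rab gene, and DESeq2 called 0. The replicate number paired the KO untreated and LPA libraries, except untreated number 1. With it as a block edgeR called 1, a rise of Rab44 by 0.51 ± 0.12 (adjusted p = 0.014). Without the block it changed by 0.49 ± 0.24 (adjusted p = 0.41), and each of the 4 KO pairs was higher with LPA.

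The difference of the LPA effect between genotypes, KO minus WT, was called for 15 Rab genes (34.1%), 3 higher and 12 lower, beside 28.5% of all genes, 12.7% higher and 15.8% lower. With library totals 7 were higher and 8 lower. It uses the same libraries as the LPA comparisons, so it adds no independent values to them. Rab10 (-0.56 ± 0.09, edgeR adjusted p = 0.00012), Rab12 (-0.46 ± 0.09, adjusted p = 0.0014), Rab32 (-0.52 ± 0.11, adjusted p = 0.0024) and Rab40c (0.29 ± 0.08, adjusted p = 0.0096) were called under all alternatives, as were Rab8a and Rab21. The difference was -0.57 ± 0.19 for Rab20 (adjusted p = 0.032), a call lost in 9 alternatives. Rab38 differed by 0.98 ± 0.30 (adjusted p = 0.019), a call lost with libraries thinned to the smallest. Rab44 differed by 0.91 ± 0.34 (adjusted p = 0.048, over 0.05 in 13 alternatives). The other called genes were Rab1a, Rab2a, Rab5a, Rab6a, Rab18 and Rab22a, with differences from -0.31 to -0.15. The call was lost in 14 of 24 alternatives for Rab2a, 13 for Rab6a, 9 for Rab18, 4 for Rab22a, 3 for Rab5a and 2 for Rab1a. Rab2a was called with LPA in neither genotype. The count of called genes was 8 without WT LPA replicate 2, and 9 without either WT LPA replicate 1 or WT Cont replicate 3. With the replicate number as a block it was 21, and Rab27a (0.88, adjusted p = 0.0017) and Rab6b (0.67, adjusted p = 0.0086) were then called.

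**Figure D5:**
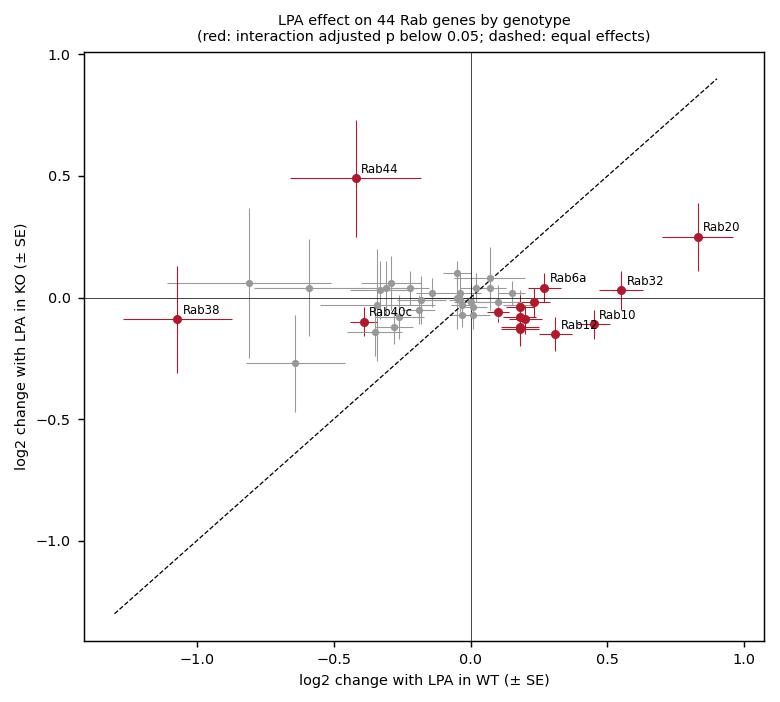
log2 change with LPA in WT (horizontal) against KO (vertical) for the 44 Rab genes, with SE bars, red where the difference between genotypes was called, and the dashed line marking equal effects. Along the horizontal axis the genes spread from -1.07 (Rab38) to 0.83 (Rab20), and in KO they lie between -0.27 and 0.49.

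For the LPS effect 0 Rab genes differed between the genotypes by the same test, beside 0% of all genes. At an unadjusted p below 0.05 there were 5, and DESeq2 called 0. The estimated differences ran from -0.43 ± 0.18 for Rab7b to 0.52 ± 0.32 for Rab38. A missed threshold does not show that the effects were equal.

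Without treatment, 0 Rab genes differed between KO and WT macrophages, beside 0.00863% of all genes (1 gene, Gpr35), with 0 at an unadjusted p below 0.05 and 0 in DESeq2. With LPA present 24 differed (54.5%), 10 higher and 14 lower in KO, beside 50.3% of all genes, 24.4% higher and 25.9% lower. With library totals these became 19 higher and 11 lower. The largest differences upward in KO were Rab44 (1.25 ± 0.24, edgeR adjusted p = 0.00023), Rab27a (1.07 ± 0.31), Rab38 (0.76 ± 0.22), Rab6b (0.49 ± 0.20, adjusted p = 0.048, a call lost in 8 alternatives), Rab4a (0.45 ± 0.12) and Rab40c (0.34 ± 0.06). Every KO library with LPA held more Rab44 than any WT library with LPA, while for Rab27a, Rab38 and Rab6b the ranges overlapped. Neutrophil markers summed to 202.6 to 412 CPM in the KO and 219.5 to 266 CPM in the WT libraries with LPA, and their part in these differences was not tested. Downward they were Rab32 (-0.59 ± 0.08, adjusted p = 5.7e-06), Rab20 (-0.58 ± 0.14, adjusted p = 0.0014), Rab10 (-0.54 ± 0.06), Rab12 (-0.45 ± 0.07), Rab21 (-0.33 ± 0.06) and Rab22a (-0.33 ± 0.07). For Rab20 too the ranges overlapped, at 22.9 to 42.7 CPM in WT and 17.8 to 25.4 CPM in KO with LPA.

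With LPS present 2 Rab genes were lower in KO and 0 higher, beside 2.85% of all genes, 2.16% lower and 0.690% higher. Rab29, which acts at the Golgi and stressed lysosomes, held 40.3, 41.6, 50.02 and 41.6 CPM in WT and 34.6, 30.7, 34.6 and 34.7 CPM in KO with LPS, without overlap. The log2 difference was -0.37 ± 0.09 (edgeR adjusted p = 0.027). In WT replicate 3 was the highest Rab29 library untreated, with LPA and with LPS, and without WT LPS replicate 3 the adjusted p was 0.15. Rab24, linked to autophagy, held 33.1, 36.7, 36.1 and 36.3 CPM in WT and 29.2, 31.9, 30.8 and 31.4 CPM in KO, also without overlap, and differed by -0.21 ± 0.05 (adjusted p = 0.038). The count of 2 ran from 0, without WT LPS replicate 3 or KO LPS replicate 3, to 6 without WT LPS replicate 1. It was 1 without WT LPS replicate 2 or KO LPS replicate 1 or 4, and DESeq2 called 8. The call was lost in 10 of 16 alternatives for Rab24 and in 8 for Rab29. Without KO LPS replicate 4 both of these calls were lost. With library totals neither was called, and Rab5b was called higher in KO.

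Set directly against LPA in WT cells, LPS raised 24 Rabs and lowered 11, 35 of 44 (79.5%), beside 78.9% of all genes, 37.8% higher and 41.1% lower. With library totals, which moved the median of all genes to -0.54, 12 were higher and 20 lower. Rab20 differed by 1.37 ± 0.13, Rab10 by 1.25 ± 0.06, Rab4a by -1.72 ± 0.13 and Rab6b by -1.78 ± 0.22, with edgeR adjusted p of at most 2.3e-07. For Rab38, Rab27a and Rab44 the LPS and LPA libraries of WT overlapped, with differences of 0.06 ± 0.22, -0.18 ± 0.33 and -0.17 ± 0.26 and a smallest adjusted p of 0.55. With library totals Rab44 was called lower, at -0.67 (adjusted p = 0.021).

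The regulators of Rab proteins were taken from lists by function. Of 33 measured GAPs, the off switches, LPS lowered 24 and raised 7 in WT, and lowered 22 and raised 7 in KO, with a median log2 change of -0.55 and -0.62. Over all genes 43.6% were lower and 40.6% higher in WT, and 43.0% and 39.3% in KO. This is the background for all regulator counts with LPS on the TMM scale, and not for those with library totals. The 2 GAPs with the smallest p in WT both rose. Tbc1d1, a GAP of Rab10 and its relatives, rose by 2.55 ± 0.06 in WT and 2.30 ± 0.06 in KO, from 50.5 to 296 CPM in WT. Tbc1d13, a GAP of Rab35, rose by 1.57 ± 0.07 and 1.31 ± 0.07. With library totals 28 GAPs were lower and 5 higher in WT. Of 33 measured GEFs LPS raised 17 and lowered 10 in WT, which became 6 and 23 with library totals. Totals lowered the median of all genes too, so no balance particular to this list is read from these counts.

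Rab3il1, which activates Rab3a and Rab8, fell, with a log2 change of -3.02 ± 0.12 in WT and -3.17 ± 0.13 in KO with LPS (edgeR adjusted p = 6.9e-16 and 9.3e-16), from 216 to 26.7 CPM in WT, and -0.83 ± 0.11 with LPA in WT. Dennd4c, an activator of Rab10, fell with LPS, with a log2 change of -1.32 ± 0.06 and -1.47 ± 0.06. Among 33 effectors LPS raised 16 and lowered 13 in WT, or 12 and 20 with library totals. Appl2, a Rab5 effector on early endosomes, fell, with a log2 change of -3.00 ± 0.09 in WT and -2.79 ± 0.09 in KO, and -0.67 ± 0.08 with LPA in WT. Optn, which binds Rab8 and links cargo to autophagy, rose by 1.91 ± 0.06 and 1.60 ± 0.06 with LPS. Of 9 genes for prenylation and GDP dissociation inhibitors LPS raised 3 and lowered 5 in WT, or 0 and 8 with library totals. Chm, a Rab escort protein, was higher by 0.67 ± 0.06 in WT, and Rabggta, a subunit of the prenylating enzyme, fell, with a log2 change of -0.67 ± 0.05.

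With LPA in WT, GAPs were 5 higher and 10 lower, GEFs 3 and 4, effectors 12 and 5, and the prenylation group 0 and 4, beside 23.5% of all genes higher and 21.1% lower. The called GAPs were 45.5% and the called GEFs 21.2% of their lists, beside 44.6% of all genes. Micall2, an effector of Rab8 and Rab13, rose by 0.90 ± 0.11, and Rabgef1, an activator of Rab5, by 0.22 ± 0.06. Lower were Tbc1d22a (-0.40 ± 0.06), Tbc1d5 (-0.37 ± 0.05), Chml, another escort protein (-0.51 ± 0.09), and Rabggta (-0.18 ± 0.05). The largest edgeR adjusted p of these 6 was 0.0068. In KO cells LPA changed 2 of 33 GAPs, 1 of 33 GEFs, 0 of 33 effectors and 0 of 9 prenylation genes, where 5, 5, 5 and 2 had an unadjusted p below 0.05. These counts stand beside 2.62% of all genes, so they are near the background. Tbc1d9 rose by 0.44 ± 0.06 (adjusted p = 0.00011), Dennd1a, an activator of Rab35, fell, with a log2 change of -0.23 ± 0.05 (adjusted p = 0.019) and Tbc1d2b fell, with a log2 change of -0.34 ± 0.08 (adjusted p = 0.022). Without a call in KO were the escort and prenylation genes and the effectors, of which Gdi2 (0.16 ± 0.06), Rabggtb (-0.12 ± 0.05), Rab11fip1 (0.44 ± 0.14) and Micall2 (0.34 ± 0.12) had the smallest adjusted p, from 0.11 to 0.29. Dennd6a was the next GEF, at -0.16 ± 0.05 (adjusted p = 0.075).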

How the data were processed

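Poly(A) libraries of mouse macrophages were represented by the authors' deposited table of raw counts per gene and library, whole numbers, with a gene length (another deposited column) for each row. Reads were aligned with STAR 2.5.2a to mm10, per the submitters' processing notes. The sources used here name no counter, strand setting or annotation. The members and gene lists were chosen with earlier results of these data known. The 11590 rows, of which 9 carry no symbol, entered edgeR 4.0.16 (R 4.3.3) with TMM factors from 0.739 to 1.18 and the default filter on low counts, which removed none since the lowest row total was 170. A quasi-likelihood fit (robust) had a mean for each of 6 groups over 24 libraries and 18 residual degrees of freedom, and p-values were adjusted by Benjamini-Hochberg over all rows, with a threshold of 0.05. The common biological coefficient of variation was 9.91%, and the smallest library held 15167683 counts.

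Every Rab row may be named. Library values are given for up to 6 called genes with the largest change each way in each comparison and for close relatives, and from each regulator list the 2 genes with the smallest adjusted p. Alternatives were other size factors, library totals, a stricter filter (50 counts in 4 libraries), the compared groups alone, a replicate block, thinning to the smallest library, DESeq2 1.42.0 and leaving out each library. Replicate numbers paired the WT untreated and LPA libraries, as read from the data (correlation of deviations from 0.211 to 0.626). They also paired most KO libraries, untreated with LPA (0.28 to 0.772) and with LPS (0.196 to 0.511), and LPA with LPS (0.114 to 0.524). KO untreated number 1 correlated best with another number, both with LPA (0.347 with its own) and with LPS (0.262 with its own). WT LPS number 1 (0.0938 with untreated) and numbers across genotypes did not pair. Replicates differed beyond counting noise in all 36 pairs (chi-square per degree of freedom from 4.09 to 77.3). The scripts were tested on simulated counts. Promoter windows on chromosome 18 are not used here.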

Additional observations from a re-analysis of the deposited data

Results flagged for a closer look

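For 126 sets of 4 libraries (21 named Rab genes in 6 groups), the gap between an extreme library and its nearest neighbour was compared with the range of the set, and 9 exceeded Dixon's 95% critical value. Chance gives about 1 in 20 such sets. Rab29 accounted for 4 of them. WT replicate 3 held 39.39 CPM untreated (the others 33.16 to 33.6), 34.7 CPM with LPA (26.9 to 27.99) and 50.02 CPM with LPS (40.26 to 41.62), and KO replicate 2 with LPS held 30.67 CPM (34.59 to 34.69). Rab24 stood at 33.08 CPM in WT LPS replicate 1 (36.15 to 36.7), Rab38 at 3.934 CPM in untreated WT replicate 3 (2.727 to 2.856) and Rab40c at 32.57 CPM in untreated WT replicate 2 (33.56 to 33.72). KO LPA replicate 2 was high for Rab4a, at 7.408 CPM (5.945 to 6.179), and for Rab5a, at 74.31 CPM (67.92 to 68.15).

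The effect of LPA differed between KO and WT by edgeR's interaction term for 15 Rab genes. On the log2 scale, KO minus WT, the differences were -0.57 for Rab20, -0.56 for Rab10, -0.52 for Rab32, -0.46 for Rab12, -0.31 for Rab1a, -0.30 for Rab22a, -0.29 for Rab21, -0.26 for Rab18, -0.25 for Rab5a, -0.23 for Rab6a, -0.23 for Rab8a and -0.15 for Rab2a. They were 0.29 for Rab40c, 0.91 for Rab44 and 0.98 for Rab38. Of these 15 calls, 6 held under all alternatives and 9 were lost in some.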

How the results depend on the processing

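Counts of called Rab genes with LPS hardly moved when a library was left out, from 38 to 39 in WT and from 36 to 37 in KO. They ran from 14 to 29 for LPA in WT, from 20 to 32 for KO against WT with LPA, from 0 to 6 for KO against WT with LPS, from 8 to 20 for the difference of the LPA effect and from 34 to 37 for LPS against LPA, and stayed at 0 for LPA in KO, KO against WT untreated and the difference of the LPS effect. Thinning to the smallest library gave 16 calls for LPA in WT. With the replicate block there was 1 call for LPA in KO, 30 for LPA in WT, 39 and 37 for LPS in WT and KO, 19 for KO against WT with LPA and 21 for the difference of the LPA effect. Replicate numbers did not pair across genotypes, so the block counts of KO against WT do not bear on how stable those calls were. KO against WT with LPS gave 1 call with library totals, but for Rab5b, higher in KO (0.19, edgeR adjusted p = 0.039). Rab24 and Rab29 were not called with totals. The same comparison gave 0 calls in the compared groups alone, 0 with the replicate block, 0 after thinning and 8 in DESeq2. Library totals turned the direction of 21 values. For LPS in WT these were Rab24 (-0.41), Rab7 (-0.29), Rab29 (-0.24), Rab43 (-0.23), Rab8b (-0.14), Rab9 (-0.12), Rab4b (-0.08), Rab35 (-0.05) and Rab2a (-0.00). In KO they were Rab5b (-0.38), Rab8b (-0.23), Rab7 (-0.21), Rab9 (-0.19), Rab4b (-0.05), Rab35 (-0.01) and Rab2a (-0.01), and for LPS against LPA Rab24 (-0.33), Rab7 (-0.33), Rab4b (-0.10), Rab2a (-0.05) and Rab35 (-0.01). The cause of the other moves was not tested. Thinned to the smallest library, Rab38 lost its calls with LPA and with LPS in WT, while Rab3a kept its calls with both. Rab38 then also lost its call for the difference of the LPA effect.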
